A study of Mus musculus with 23 samples.

Results

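Colon stem cell and Wnt target genes were examined by RNA sequencing of colon epithelium from mice kept on different diets. The 10 genes Lgr5, Ascl2, Smoc2, Lrig1, Axin2, Rnf43, Znrf3, Ephb2, Sox9 and Cd44 were taken by gene symbol from the 24917 gene loci of the count table. Each symbol matched 1 locus, and all 10 passed the filter on low counts in each fit. Male C57BL/6 mice (C57BL/6J in the methods) entered the diets at 6 weeks of age. LF mice ate a diet with 10% fat for 43 weeks, HF mice ate a diet with 60% fat for 43 weeks, and HF-LF mice ate the 60% diet for 15 weeks and then the 10% diet for 28 weeks. Batch 1 held 4 LF, 4 HF-LF and 3 HF samples, and batch 2 held 4 LF, 5 HF-LF and 3 HF samples, 23 in all. The labels give a batch number without saying what the batches are. Epithelium was released from the whole colon with EDTA, so each sample is a bulk of all crypt and surface cells, in which fewer cells of a type and less RNA per cell cannot be told apart. The methods name 5 mice per dietary regimen. It was not established that all 23 samples came from separate mice, so p-values measure only the spread between these samples.

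The colonic epithelium renews itself from stem cells at the base of each crypt. Wnt ligands from the crypt surroundings bind Frizzled and LRP receptors, which stops the destruction of beta-catenin, and beta-catenin then enters the nucleus and switches on target genes with TCF factors. Some targets, such as Lgr5 and Ascl2, mark the stem cells, and others, such as Axin2, Rnf43 and Znrf3, act back on the pathway and dampen it. Loss of restraint on the pathway, most often by mutation of Apc, is the usual first step in colorectal cancer.

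The gene counts of a sample summed to 29189922 to 46498521 in batch 1 and to 31607019 to 65320947 in batch 2. Values are given as CPM, counts scaled to a common library total with TMM within a batch, and 3 counts lay between 0.0459 and 0.103 CPM, a floor that covers counting error only. The epithelial label held by its markers. The summed level of 9 epithelial genes such as Epcam, Cdh1 and Krt8 lay between 12555 and 16255 CPM in every sample. The 10 lymphocyte and myeloid genes summed to 14.4 to 33.6 CPM, the 8 fibroblast genes to 12.98 to 74.2 CPM, the 6 smooth muscle genes to 0.541 to 50.2 CPM and the 6 endothelial and glial genes to 2.32 to 11.5 CPM. HF replicate 3 of batch 1 stood apart, with a median Spearman correlation to its batch of 0.981 against 0.991 or more for every other library. Results that rest on it are given with and without it.

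In LF mice, the level per kb of exon was highest for Lrig1 among the 10 genes and lowest for Lgr5. Exon length was that of all GENCODE M21 exons of a gene joined. This length may differ from that of the gene models used for counting, and the order depends on it. In batch 2 the mean level of Lrig1 was 49.9 ± 2.85 CPM per kb (SD, n = 4). Sox9 followed with 17.7 ± 2.53 CPM per kb. Axin2 at 11.4 ± 1.33, Rnf43 at 11.1 ± 1.02, Cd44 at 10.1 ± 2.01 and Ephb2 at 9.93 ± 0.525 CPM per kb came next, and these 4 neighbours did not differ beyond their spread. Smoc2 stood at 5.56 ± 0.550, Ascl2 at 4.68 ± 0.392, Znrf3 at 3.76 ± 0.417 and Lgr5 at 2.07 ± 0.344 CPM per kb. The order in LF mice of batch 1 was the same except that Rnf43 stood above Axin2.

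Axin2, a scaffold of the complex that destroys beta-catenin and a widely used readout of Wnt activity, had lower means in HF than in LF mice of both batches. It lies at chr11:108920349-108950781 on the plus strand (mm10). The LF samples of batch 1 read 46.7, 44.8, 54.1 and 41.8 CPM, the HF-LF samples 38.7, 52.8, 40.3 and 42.8 CPM, and the HF samples 38.3, 39.6 and 21.8 CPM. Every HF sample of batch 1 lay below every LF sample, the lowest being the library that stood apart. In batch 2 the LF samples read 71.8, 61.8, 64.5 and 54.0 CPM, the HF-LF samples 66.9, 57.9, 56.1, 67.0 and 55.5 CPM, and the HF samples 53.1, 46.0 and 45.6 CPM. Again no HF sample reached an LF sample. The log2 fold change of Axin2 between HF and LF mice was -0.50 ± 0.18 (SE) in batch 1 (edgeR quasi-likelihood test, Benjamini-Hochberg adjusted p = 0.174), so it did not pass there, and it was -0.26 ± 0.13 without HF replicate 3 (adjusted p = 0.550). It fell in batch 2, with a log2 fold change of -0.39 ± 0.10 (adjusted p = 0.0373), and over both batches, with -0.44 ± 0.10 (adjusted p = 0.00724). Without HF replicate 3 of batch 1 the value for Axin2 over both batches was -0.32 (adjusted p = 0.0175).

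Rnf43 and Znrf3 encode related membrane ubiquitin ligases that remove Frizzled receptors from the cell surface, and R-spondins relieve this through the LGR receptors. Rnf43 lies at chr11:87663087-87735539 on the plus strand. Its LF samples read 64.2, 68.3, 73.7 and 59.5 CPM in batch 1, its HF-LF samples 55.4, 67.4, 55.3 and 52.9 CPM and its HF samples 47.9, 64.3 and 42.3 CPM, with HF replicate 2 inside the LF range. The LF samples of Rnf43 in batch 2 read 82.1, 71.4, 69.7 and 66.8 CPM, the HF-LF samples 85.7, 60.7, 69.1, 82.0 and 66.5 CPM and the HF samples 60.8, 54.7 and 57.2 CPM, without overlap between HF and LF. The log2 fold change of Rnf43 was -0.37 ± 0.14 in batch 1 (adjusted p = 0.176) and -0.33 ± 0.11 in batch 2 (adjusted p = 0.0608), neither past the threshold, and the batch 1 value was -0.24 without HF replicate 3. It fell over both batches, by 0.35 on the log2 scale (adjusted p = 0.00990), and without HF replicate 3 of batch 1 the value was -0.29 (adjusted p = 0.0344). The locus of Rnf43 overlaps that of 1110028F11Rik on the same strand, which read 3.67 to 16.7 CPM, and how such shared reads were counted is not given in the sources used here.

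Znrf3 lies at chr11:5276329-5444847 on the minus strand. In batch 1 its LF samples read 27.6, 29.4, 28.7 and 24.6 CPM, its HF-LF samples 25.8, 27.1, 29.6 and 26.5 CPM and its HF samples 24.4, 26.2 and 23.4 CPM, and LF and HF overlapped. The LF samples of Znrf3 in batch 2 read 33.7, 29.7, 29.6 and 25.6 CPM, the HF-LF samples 30.2, 27.4, 25.3, 32.5 and 27.9 CPM and the HF samples 23.5, 19.3 and 21.6 CPM, and LF and HF did not overlap. The log2 fold change of Znrf3 was -0.16 ± 0.09 in batch 1 (adjusted p = 0.30003). Znrf3 fell in batch 2, with -0.46 ± 0.10 (adjusted p = 0.0280), and over both batches, with -0.31 ± 0.07 (adjusted p = 0.00724). Without HF replicate 3 of batch 1 its value over both batches was -0.30 (adjusted p = 0.0191), and without HF replicate 2 of batch 2 it was -0.25, under the fold of 1.2 that a call needs.

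**Figure D1:**
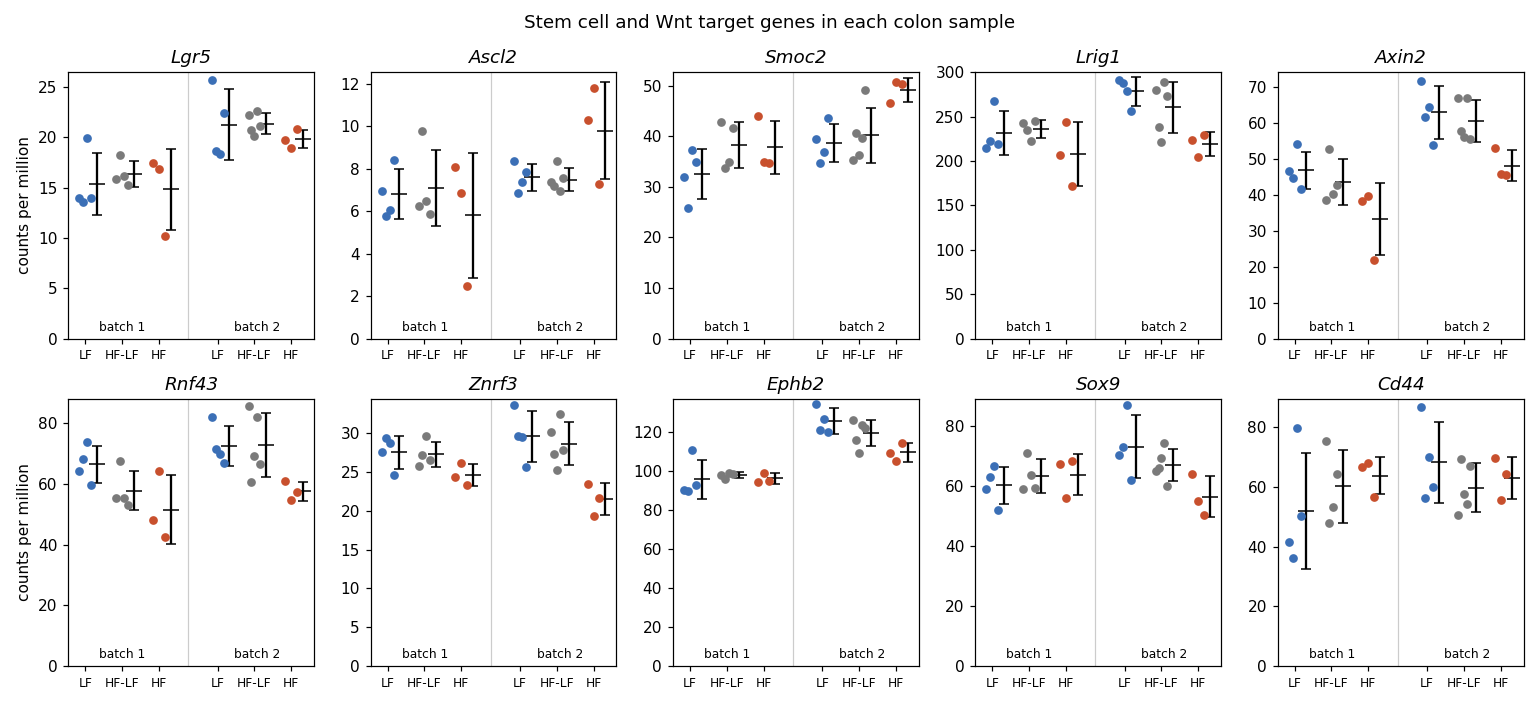
Level of each of the 10 genes in CPM (vertical axis, from 0) in every sample, by diet and batch (horizontal axis). Points are samples and the bar beside them is the mean ± SD of the group. In Axin2 the HF samples of both batches lie below all LF samples of their batch, and in Lgr5 the groups overlap.

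Because Axin2 and Rnf43 moved in the same direction and RefSeq windows were at hand for both, the 250 bases before their annotated starts are shown (GRCm38.p6, 5′ to 3′, CG dinucleotides in capitals). The Axin2 window lies at chr11:108920099-108920348 (plus strand) and the Rnf43 window at chr11:87662837-87663086 (plus strand).
Axin2: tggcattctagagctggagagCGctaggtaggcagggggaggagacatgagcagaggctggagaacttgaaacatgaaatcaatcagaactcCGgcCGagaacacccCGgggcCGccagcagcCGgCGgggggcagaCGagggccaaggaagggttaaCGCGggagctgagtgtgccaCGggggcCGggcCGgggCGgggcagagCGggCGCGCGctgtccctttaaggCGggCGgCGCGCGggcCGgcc
Rnf43: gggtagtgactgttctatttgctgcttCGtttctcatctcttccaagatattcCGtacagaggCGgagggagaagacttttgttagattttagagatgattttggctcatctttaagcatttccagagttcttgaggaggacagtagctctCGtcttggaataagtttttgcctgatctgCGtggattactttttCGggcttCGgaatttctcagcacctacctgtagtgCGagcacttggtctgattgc
The sequences differ in base composition. The Axin2 window holds 24 CG dinucleotides and 69.2% G and C, and the Rnf43 window holds 8 and 44.4%, where the median over 32851 such windows is 6 CG dinucleotides. The letters CTTTGA, a core of the TCF and LEF motif, were searched on both strands. They were in neither window, nor in those of the 4 other genes with an entry (Ascl2, Lrig1, Ephb2 and Cd44), and were in 13.8% of all windows. A second entry for Rnf43, which starts further downstream, did not hold these letters either.

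Lgr5, the R-spondin receptor that marks crypt base stem cells, differed little between diets. It lies at chr10:115450314-115587780 on the minus strand. In batch 1 its LF samples read 13.9, 13.6, 19.99 and 14.01 CPM, its HF-LF samples 15.8, 18.2, 16.2 and 15.3 CPM and its HF samples 17.5, 16.9 and 10.2 CPM. In batch 2 the LF samples of Lgr5 read 25.7, 18.6, 18.3 and 22.5 CPM, the HF-LF samples 22.2, 20.8, 20.2, 22.7 and 21.1 CPM and the HF samples 19.7, 19.0 and 20.8 CPM. The groups overlapped in both batches. The log2 fold change of Lgr5 between HF and LF mice over both batches was -0.08 ± 0.10 (adjusted p = 0.603), with a 95% interval of -0.28 to 0.13. Without HF replicate 3 of batch 1, the batch 1 value of Lgr5 went from -0.05 to 0.16 and the value over both batches from -0.08 to 0.03.

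Smoc2, a secreted matrix protein used as a stem cell marker in the intestine, had higher means in HF than in LF mice of both batches. Its locus is chr17:14279506-14404790 on the plus strand. In batch 1 its LF samples read 31.9, 25.8, 37.3 and 34.9 CPM, its HF-LF samples 42.8, 33.8, 34.99 and 41.6 CPM and its HF samples 43.9, 34.9 and 34.6 CPM. In batch 2 the LF samples of Smoc2 read 39.4, 34.7, 36.9 and 43.6 CPM, the HF-LF samples 35.4, 40.5, 36.3, 39.6 and 49.1 CPM and the HF samples 46.5, 50.7 and 50.2 CPM. HF and LF samples overlapped in batch 1 and not in batch 2. The log2 fold change of Smoc2 was 0.22 ± 0.14 in batch 1 (adjusted p = 0.343). Smoc2 rose in batch 2, with 0.35 ± 0.10 (adjusted p = 0.0491), and over both batches, with 0.29 ± 0.09 (adjusted p = 0.0259). Over both batches, without any 1 of 4 libraries (LF replicate 2 or HF replicate 1 of batch 1, or HF replicate 2 or 3 of batch 2), Smoc2 was not called and the number of the 10 genes called higher was 0.

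Ascl2, a transcription factor that sets the stem cell state, read 8.35, 6.86, 7.35 and 7.83 CPM in the LF mice of batch 2 and 10.3, 11.8 and 7.29 CPM in its HF mice. Of these HF samples 2 lay above all LF samples and 1 lay among them. Its log2 fold change in batch 2 was 0.36 ± 0.14 (adjusted p = 0.0898). In batch 1 the value for Ascl2 was -0.23 ± 0.32, and 0.14 without HF replicate 3, in which Ascl2 read 2.48 CPM. Lrig1, an inhibitor of ERBB receptors that marks stem and progenitor cells, read 291, 288, 279 and 256 CPM in the LF samples of batch 2 and 224, 205 and 229 CPM in the HF samples. The groups did not overlap, and Lrig1 fell there, with a log2 fold change of -0.34 ± 0.09 (adjusted p = 0.0382). In batch 1 the value for Lrig1 was -0.16 ± 0.12 (adjusted p = 0.429). Over both batches it was -0.25 ± 0.08 with an adjusted p of 0.0201, which is under the fold of 1.2 and so was no call.

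Among the remaining targets, Sox9, a transcription factor of crypt progenitors and secretory cells, fell in batch 2. Its LF samples read 70.4, 73.2, 87.3 and 62.1 CPM there and its HF samples 63.9, 55.0 and 50.5 CPM, so that HF replicate 1 lay above LF replicate 4. The log2 fold change of Sox9 was -0.38 ± 0.11 in batch 2 (adjusted p = 0.0453) and 0.08 ± 0.11 in batch 1 (adjusted p = 0.651). Ephb2, a receptor that places cells along the crypt axis, read 134, 121, 126 and 119.8 CPM in LF and 109, 105 and 114 CPM in HF samples of batch 2. Its groups did not overlap, but its log2 fold change of -0.20 ± 0.06 did not pass (adjusted p = 0.0616). In batch 1 the value for Ephb2 was 0.01 ± 0.09. Cd44, an adhesion receptor for hyaluronan, varied most among LF mice of batch 1, from 36.2 to 79.9 CPM. Its log2 fold change was 0.29 ± 0.23 in batch 1 and -0.11 ± 0.14 in batch 2, neither past the threshold (adjusted p = 0.436 and 0.602).

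A gene was called at an adjusted p under 0.05 and a fold above 1.2. Between HF and LF mice of batch 1 none of the 10 genes was called, and 0% of the 14428 genes tested were, while 3198 of them had an unadjusted p under 0.05. Of the 10 genes 2, Axin2 and Rnf43, had an unadjusted p under 0.05 there, both with lower values in HF mice. In batch 2, 4 of the 10 genes fell, against 4.4% of all genes tested, and 1 rose, against 3.03%. Over both batches 3 fell, against 9.11% of all genes, and 1 rose, against 9%. The median log2 fold change of the 10 genes was -0.10 in batch 1, -0.26 in batch 2 and -0.12 over both, and that of all genes tested -0.0038, -0.013 and -0.0080. The median of the 10 genes in batch 1 was 0.03 without HF replicate 3, with 6 genes higher and 4 lower in HF mice, and over both batches it was -0.13. Between HF and LF samples of batch 1 only Axin2 of the 10 did not overlap, with lower values, where 7.33% of all genes had such lower and 6.29% such higher values. In batch 2, 5 genes (Axin2, Rnf43, Znrf3, Lrig1 and Ephb2) were lower in HF mice without overlap, where 13.5% of all genes were, and Smoc2 was higher, where 13.8% were. With the offsets for GC content and length, the Ephb2 log2 fold change turned to 0.07 in batch 2. The test of a different HF to LF change between the batches called none of the 10 genes and 0% of all genes. The lowest unadjusted p was that of Sox9, 0.00644 (adjusted p = 0.688).

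The calls in batch 2 rested on few samples. Without any 1 of 5 libraries (LF replicates 1, 2 or 3, or HF replicates 2 or 3) 0 of the 10 genes were called in either direction between HF and LF mice of batch 2. Axin2 kept a log2 fold change between -0.46 and -0.32 when each of the 7 libraries was left out, with adjusted p up to 0.205. Over both batches 2 to 4 of the 10 genes were called lower whichever of the 14 LF and HF libraries was left out, and Axin2 kept an adjusted p of at most 0.0208. Calls over all genes were counted only in the fits without HF replicate 3 of batch 1. Whether the changes in these counts are particular to the 10 genes was not tested.

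**Figure D2:**
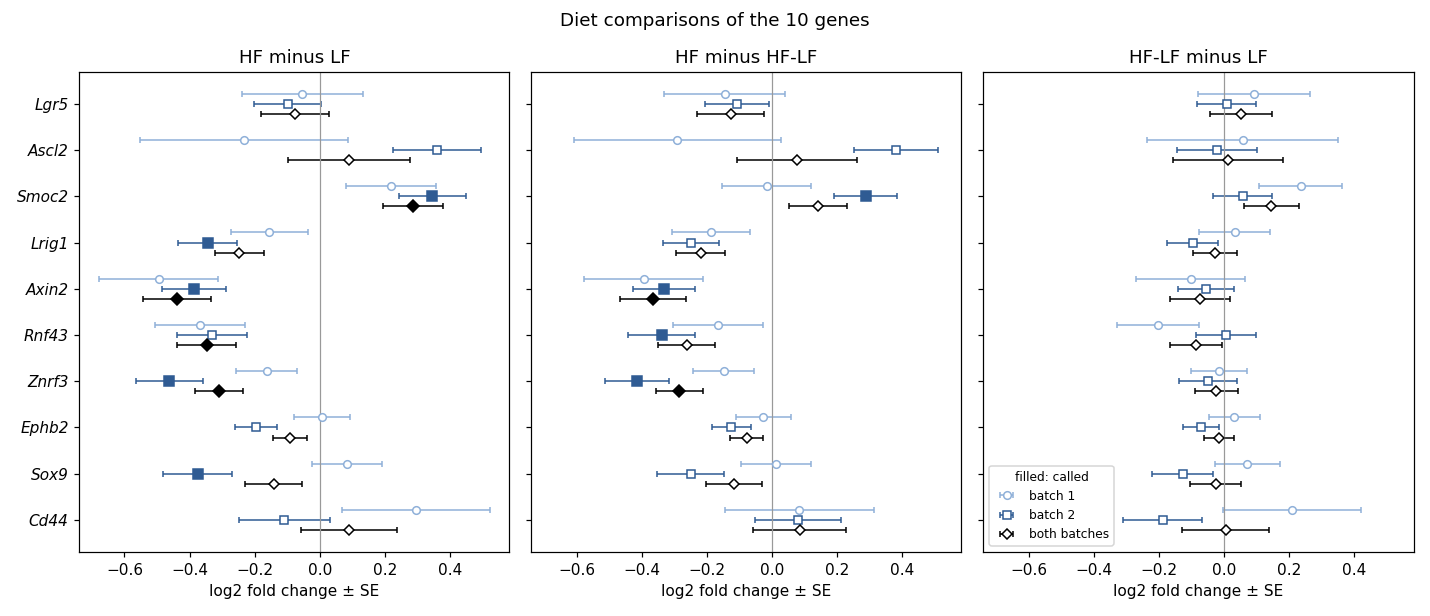
Log2 fold change ± SE (horizontal axis) of each of the 10 genes (vertical axis) between HF and LF, HF and HF-LF, and HF-LF and LF mice, in batch 1, in batch 2 and over both. Filled symbols are calls. Axin2, Rnf43 and Znrf3 lie left of 0 in every fit of the comparison of HF with LF mice, and the comparison of HF-LF with LF mice holds no call.

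Genes could be followed into mice that had returned to the low-fat diet. None of the 10 genes was called between HF-LF and LF mice in batch 1, in batch 2 or over both batches, where 0%, 0.00696% and 0% of all genes were, and 763, 669 and 591 genes had an unadjusted p under 0.05. Over both batches the log2 fold change between HF-LF and LF mice was -0.07 ± 0.09 for Axin2, -0.09 ± 0.08 for Rnf43 and -0.02 ± 0.07 for Znrf3. The largest value of the 10 was 0.14 ± 0.08, for Smoc2 (adjusted p = 0.980). Against HF-LF mice, HF mice of batch 1 had no call among the 10 genes, and 0.00693% of all genes were called. In batch 2, 3 genes were lower in HF than in HF-LF mice, against 8.89% of all genes. These were Znrf3 with a log2 fold change of -0.41 ± 0.10 (adjusted p = 0.0185), Rnf43 with -0.34 ± 0.10 (adjusted p = 0.0364) and Axin2 with -0.33 ± 0.09 (adjusted p = 0.0299). Znrf3 and Axin2 did not overlap between these groups, as did 14.6% of all genes with lower values. Smoc2 was higher, with 0.29 ± 0.10 (adjusted p = 0.0494), against 5.61% of all genes. Each of the 8 HF and HF-LF libraries of batch 2 was left out in turn. The call then held in 6 fits for Znrf3, 4 for Axin2, 3 for Rnf43 and 2 for Smoc2. With GC and length offsets, Znrf3 at -0.30 (adjusted p = 0.0271) and Smoc2 at 0.35 (adjusted p = 0.0393) were still called there. Axin2 at -0.23 (adjusted p = 0.0551) and Rnf43 at -0.18 (adjusted p = 0.129) were not. Calls over all genes there dropped to 389 higher and 771 lower. Over both batches Axin2, with -0.36 ± 0.10 (adjusted p = 0.0227), and Znrf3, with -0.28 ± 0.07 (adjusted p = 0.0169), were lower in HF than in HF-LF mice, against 5.44% of all genes, and none was higher, against 4.9%. Leaving out 1 library at a time moved this count of lower genes between 0, without HF replicate 2 of batch 2, and 4, without HF replicate 2 of batch 1. It was 1 without HF replicate 3 of either batch, HF-LF replicate 2 of batch 1, or HF-LF replicate 1 or 4 of batch 2. Calls over all genes also dropped without HF replicate 3 of batch 1, from 705 to 272 higher and from 783 to 229 lower. The comparisons of LF and of HF-LF mice share the HF samples.

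Other genes of the Wnt pathway were counted over both batches between HF and LF mice, where 9.11% of all genes tested fell and 9% rose. Of 23 ligands and R-spondins 6 were expressed enough to be tested and none was called, with a median log2 fold change of -0.45. Markers of stromal cells moved with this list over both batches, but not all did in batch 1. Their part in the ligand values was not tested. All 8 fibroblast genes had lower means in HF mice over both batches (median log2 fold change -0.64), as had all 6 smooth muscle genes (median -1.37). In batch 1 the medians of ligands, fibroblast and smooth muscle genes were -0.32, -0.27 and 0.16. Without HF replicate 3 they were -0.16, 0.12 and 0.69 there. In batch 2 they were -0.38, -0.99 and -2.40. Over both batches without HF replicate 3 of batch 1 they were -0.35, -0.37 and -1.09. Of 16 receptors tested 3 fell and none rose. These were the Frizzled receptors Fzd5, with -0.32 ± 0.05 (adjusted p = 0.00146), Fzd7, with -0.28 ± 0.09 (adjusted p = 0.0234), and Fzd8, with -0.27 ± 0.07 (adjusted p = 0.00807). When each of the 14 LF and HF libraries was left out in turn, the call of Fzd5 held in 14 fits, that of Fzd7 in 8 and that of Fzd8 in 7. Of 7 secreted inhibitors tested none was called over both batches. Sfrp1, an inhibitor that binds Wnt ligands, fell in batch 2, with -1.74 ± 0.47 (adjusted p = 0.0413), and was at -0.04 ± 0.78 in batch 1. The batch 2 call of Sfrp1 held in 2 of 7 fits that left out a library, and with offsets for GC content and length the value was -1.74 with an adjusted p of 0.0576. In batch 2 the summed smooth muscle genes read 5.86 to 31.0 CPM in LF and 0.858 to 4.68 CPM in HF samples (exact permutation test, p = 0.143), and their part in the Sfrp1 and Smoc2 values was not tested.

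Of 25 cytoplasmic and nuclear Wnt genes tested 6 fell over both batches, against 9.11% of all genes, and none rose, against 9%. Bcl9l, a co-activator of beta-catenin, had a log2 fold change of -0.56 ± 0.14 (adjusted p = 0.00968). Tcf7l1, with -0.42 ± 0.16 (adjusted p = 0.0458), and Tcf7l2, with -0.30 ± 0.10 (adjusted p = 0.0325), are DNA-binding partners of beta-catenin. The call of Tcf7l1 held in 2 of the 14 fits that left out a library, with values from -0.54 to -0.28, and that of Tcf7l2 in 6, with values from -0.34 to -0.25. Dvl2 and Dvl3, which carry the signal from Frizzled, had -0.39 ± 0.09 and -0.32 ± 0.10 (adjusted p = 0.00732 and 0.0196). Tle3, a co-repressor, had -0.36 ± 0.10 (adjusted p = 0.0161). The calls of Bcl9l and Dvl2 held in 14 of these 14 fits, that of Tle3 in 13 and that of Dvl3 in 12. The genes that fell included both activators and repressors of the pathway. Of 19 other Wnt targets tested 1 rose, Birc5, an inhibitor of apoptosis that also serves in mitosis and is counted among the proliferation genes too, with 0.65 ± 0.18 (adjusted p = 0.0118), and none fell. Ccnd2, a D-type cyclin, fell in batch 2 with -0.36 ± 0.10 (adjusted p = 0.0406) and was at 0.21 ± 0.16 in batch 1. The batch 2 call of Ccnd2 held in 2 of 7 fits that left out a library and was lost with the offsets, at -0.28 (adjusted p = 0.0611). Of 17 other stem and progenitor markers tested Cdk6, a kinase that drives the cell into S phase, fell with -0.45 ± 0.09 (adjusted p = 0.00383), and Cd24a, a surface protein of crypt cells, rose with 0.45 ± 0.13 (adjusted p = 0.0184). Without HF replicate 3 of batch 1 the calls came to 1 lower among receptors, 3 lower among cytoplasmic and nuclear genes, 1 higher among secreted inhibitors, 2 higher among other targets, and 1 in each direction among other stem and progenitor markers. Of all 14451 genes tested over both batches in that fit, 863 were called higher and 728 lower.

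**Figure D3:**
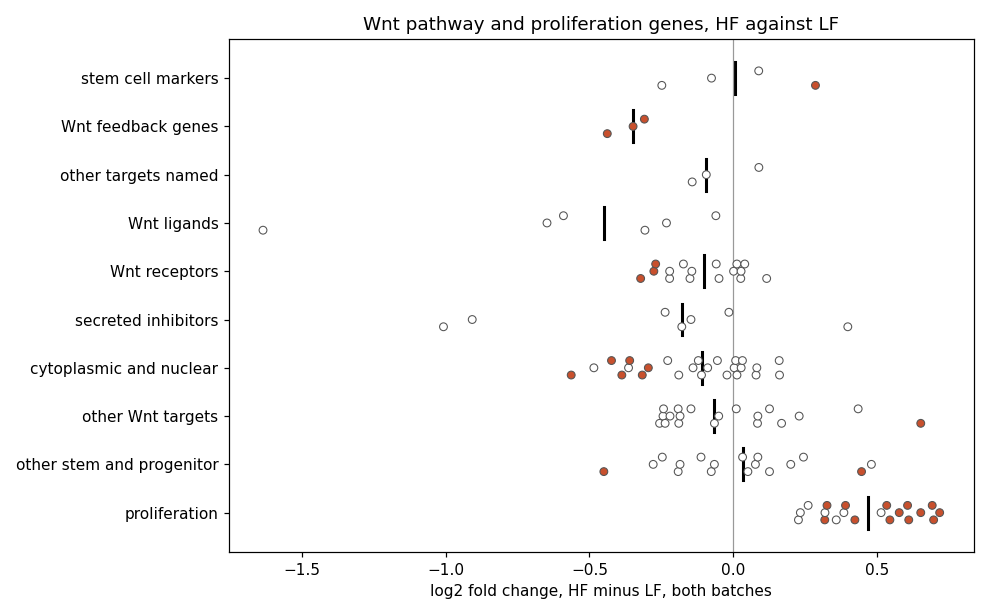
Log2 fold change between HF and LF mice over both batches (horizontal axis) of each tested gene in 10 gene lists (vertical axis). Filled points are calls and the black bar is the median of the list. The 3 feedback genes lie left of 0 and the 20 proliferation genes right of 0.

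Proliferation genes were counted in the same way. Of 20 genes of DNA replication and mitosis such as Mki67, Mcm2 and Ccna2, 13 rose in HF against LF mice over both batches, against 9% of all genes. None fell, against 9.11%, and the median log2 fold change of the 20 was 0.47. All 20 had higher means in HF mice over both batches and in batch 1, and 18 of 20 had in batch 2, but within a batch none was called. Ccna2, the cyclin of S and G2 phase, had 0.72 ± 0.21 (adjusted p = 0.0178) over both batches, and Pcna, the clamp of the replication fork, had 0.32 ± 0.08 (adjusted p = 0.00966). Their summed level in batch 1 was 427 to 687 CPM in LF and 628 to 1094 CPM in HF samples, and in batch 2 it was 838 to 939 CPM in LF and 899.7 to 1046 CPM in HF samples (exact permutation tests, p = 0.0857 and 0.114, the smallest possible being 0.0286). Without HF replicate 3 of batch 1 the number of proliferation genes called fell to 2, while all 20 still had higher means and the 3 feedback genes were still called lower. Calls over all genes also dropped without this library, from 1294 to 863 higher and from 1311 to 728 lower, with 14451 genes tested. Of other marker lists, 3 of 6 deep crypt secretory genes (Reg4, Tff3 and Agr2) rose and 1 (Kit) fell over both batches, 0 of 11 colonocyte, 0 of 9 epithelial, 0 of 6 smooth muscle, 0 of 7 immune and 0 of 3 endothelial and glial genes tested were called, and 1 of 8 fibroblast genes (Pdgfra) fell. Of the 6 deep crypt secretory genes, 3 had higher and 3 had lower means in HF mice over both batches. Their summed level in batch 2 was lower in HF than in LF mice, at means of 17867 and 23845 CPM (exact permutation test, p = 0.0857). In batch 1 these means were 14637 and 14639 CPM. Without HF replicate 3 of batch 1, 3 deep crypt secretory genes were called higher and 0 lower, and 0 fibroblast genes were called, so the calls of Kit and Pdgfra were lost.

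**Figure D4:**
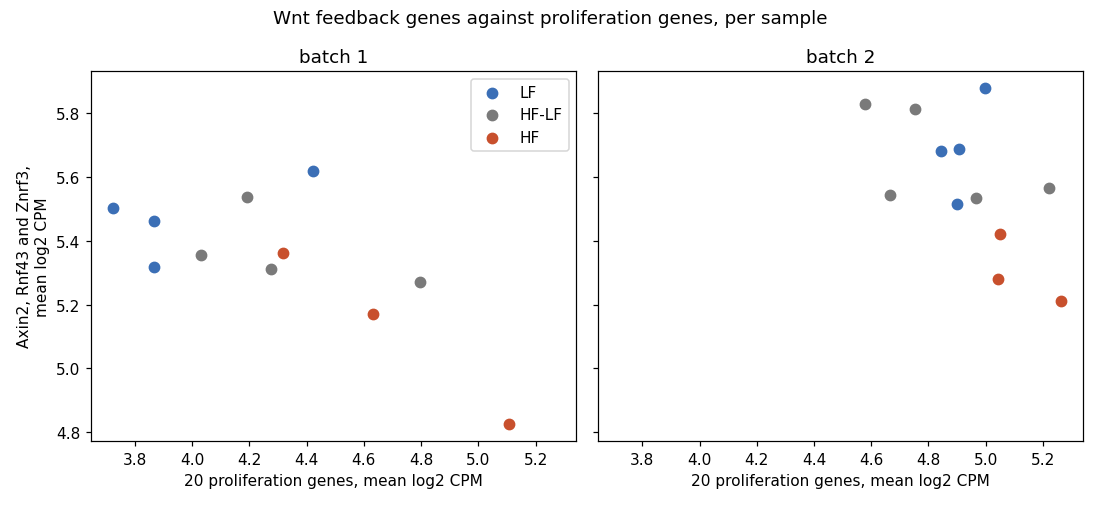
Mean log2 CPM of Axin2, Rnf43 and Znrf3 (vertical axis) against that of 20 proliferation genes (horizontal axis) in each sample of batch 1 and batch 2, coloured by diet. HF replicate 3 of batch 1 lies lowest in feedback genes (4.83) and highest in proliferation genes (5.11) of its batch.

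Across the 23 samples, after the mean of each batch was subtracted, Axin2 and Rnf43 had a Pearson r of 0.86, Rnf43 and Znrf3 of 0.76, and Axin2 and Znrf3 of 0.70, given as a description since these samples share diets and libraries. Without HF replicate 3 of batch 1 (22 samples) the values were 0.86, 0.76 and 0.82. Lrig1 went with Ephb2 (r = 0.79) and about as much with Axin2 (r = 0.79), Znrf3 (r = 0.78) and Rnf43 (r = 0.77). Without that library these values were 0.89, 0.71, 0.79 and 0.70. Smoc2 and Rnf43 had r = -0.59. Over 12418 genes, the level of Axin2 was most like those of Cdk6 (r = 0.94), Usp20 (r = 0.93), Plch2 (r = 0.93) and Ppox (r = 0.93), and that of Lgr5 most like those of Hsd3b2 (r = 0.81), Gtf2i (r = 0.80), C2cd4c (r = 0.80), Nrp2 (r = 0.79) and Nr6a1 (r = 0.78). For Lgr5 and Hsd3b2 r was 0.88 within batch 1 and 0.59 within batch 2. Across the 5 genes most like Lgr5, r ran from 0.80 to 0.93 within batch 1 and from 0.56 to 0.78 within batch 2. The genes most like Axin2 and Lgr5 were found with all 23 samples and not again without HF replicate 3 of batch 1.

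Base composition and length moved with the HF to LF change across genes. Of the 14385 genes tested over both batches 13678 had a transcript in GENCODE M21, and across them the log2 fold change had a Spearman rho of -0.33 with GC content and -0.20 with exon length, where genes are not independent. Axin2 has 54.6% and Rnf43 56.1% GC in its longest transcript. With offsets for GC and length in each sample, Axin2 was still called over both batches at -0.31 ± 0.09 (adjusted p = 0.0226), as was Smoc2 at 0.33 ± 0.10 (adjusted p = 0.0298). Znrf3 had -0.22 ± 0.06 (adjusted p = 0.0261), below the fold of 1.2, and Rnf43 had -0.17 ± 0.06 (adjusted p = 0.0643), so that 1 of the 10 genes was called lower in place of 3. Calls over all genes also dropped with the offsets, from 1294 to 575 higher and from 1311 to 688 lower. Ephb2 turned from -0.09 to 0.17 (adjusted p = 0.0705). None of the receptors and none of the cytoplasmic and nuclear Wnt genes was called under these offsets. Of these, Tcf7l2 at -0.25 (adjusted p = 0.0448), Fzd5 at -0.21 (adjusted p = 0.00927) and Fzd8 at -0.20 (adjusted p = 0.0443) kept an adjusted p under 0.05 and missed the fold of 1.2. The values of Bcl9l, Dvl2, Dvl3 and Tle3 came to -0.25, -0.20, -0.15 and -0.16. Cdk6 was called, at -0.37 ± 0.07 (adjusted p = 0.00669). Of the 20 proliferation genes 7 were called higher. In batch 2 alone Znrf3 was the only 1 of the 10 genes called, at -0.36 ± 0.08 (adjusted p = 0.0348). Calls over all genes of batch 2 dropped from 436 to 108 higher and from 633 to 227 lower. The other batch 2 calls among the 10 genes were lost with different changes in size. Smoc2 went from 0.35 to 0.39 (adjusted p = 0.0576) and Sox9 from -0.38 to -0.40 (adjusted p = 0.0558), both farther from 0, while Axin2 went from -0.39 to -0.27 (adjusted p = 0.0626) and Lrig1 from -0.34 to -0.22 (adjusted p = 0.0923).

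**Figure D5:**
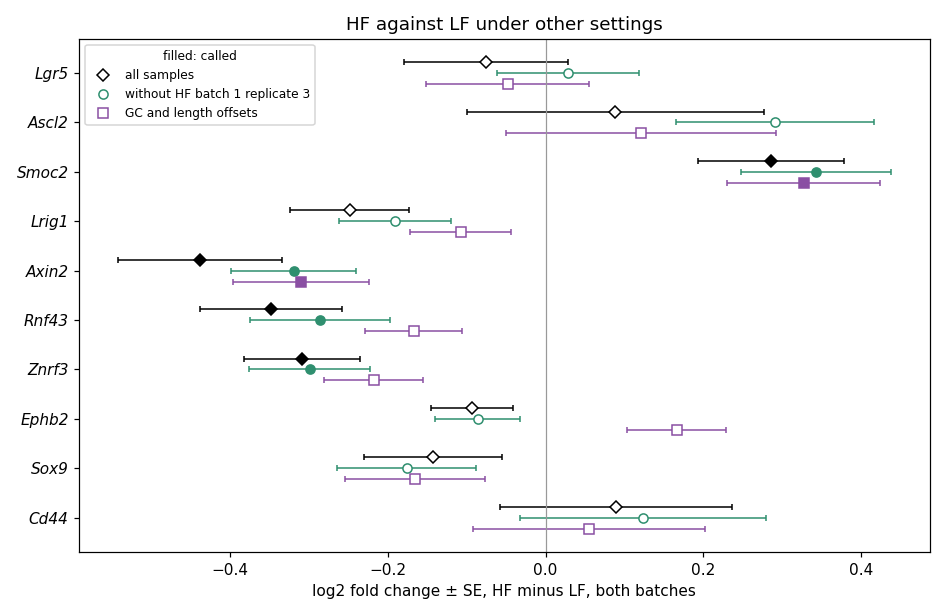
Log2 fold change ± SE between HF and LF mice over both batches (horizontal axis) of the 10 genes (vertical axis) with all samples, without HF replicate 3 of batch 1, and with offsets for GC content and length. Filled symbols are calls. Axin2 and Smoc2 are filled in all 3 fits, and Rnf43 and Znrf3 lose their calls with the offsets.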

How the data were processed

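Total RNA from colonic epithelium was depleted of ribosomal RNA, made into stranded libraries and sequenced from both ends. Per the submitters' processing notes and methods, the authors trimmed reads with cutadapt 1.2.1, aligned them to mm10 with STAR 2.5 and counted them per gene with featureCounts 1.5.0-p1. The deposited values are raw counts, not normalized, and whether counting used strand is not given in the sources used here. Of 24917 loci 5109 held no count. Groups came from the sample labels, with 23 samples in 6 groups of diet and batch.

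Genes passing edgeR's filterByExpr were tested with edgeR 4.0.16 (R 4.3.3), with TMM scaling and the quasi-likelihood test, within each batch and over both with batch as a term. P-values were adjusted by Benjamini-Hochberg over all genes tested, and a call needed an adjusted p under 0.05 and a fold above 1.2, the limits of the study. Marker sums were compared by two-sided exact permutation tests in R, and the Spearman correlations with GC content and length used scipy 1.17.1. The fits were tested on simulated data with larger planted changes than those of the 10 genes. Changes of the size seen in these genes were not simulated. Alternatives were DESeq2 1.42.0, its size factors, limma 3.58.1 voom with sample weights, no filter, the replicate number as a block, same-numbered samples as correlated, and each library left out. Offsets for GC content and length (GENCODE M21) were added after seeing the data. The named genes are the 10 genes, the genes of the other Wnt and stem cell lists called between HF and LF mice in any fit (at most 6 a list, by size of change), and the 5 genes most correlated with Lgr5 and with Axin2. One of these is not reported here. Ccna2, Pcna and the markers of other lists were named after their values were seen. The genes and lists were chosen with earlier results of these data known.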

Additional observations from a re-analysis of the deposited data

Results flagged for a closer look

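In 5 of 40 checks of a gene within a group of 4 or 5 samples, 1 sample lay far from the others by Dixon's criterion, which chance alone exceeds in about 1 of 20 groups. The genes of a group were read in the same libraries, so the 40 checks are not independent and the 2 rates cannot be compared directly. In LF mice of batch 1, replicate 3 was the highest sample for Lgr5 (19.99 CPM, the others 13.6 to 14.01), for Lrig1 (268 CPM, the others 215 to 223) and for Ephb2 (110.5 CPM, the others 89.4 to 92.5). In HF-LF mice of batch 1, replicate 2 was the highest for Ascl2 (9.78 CPM, the others 5.86 to 6.45) and for Rnf43 (67.4 CPM, the others 52.9 to 55.4). Groups of 3 samples, which include all HF groups, were not checked.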

How the results depend on the processing

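Axin2, Rnf43 and Znrf3 kept lower values in HF than in LF mice over both batches under every alternative and every library left out. Of the 10 genes, voom called 1 higher and 1 lower between HF and LF mice of batch 1. Between HF and HF-LF mice of batch 2 it called 0 higher, and DESeq2, its size factors and no filter 2 each. With GC and length offsets, chosen after seeing the data, the calls were 0 higher and 1 lower (HF against LF, batch 2), 1 lower over both, and 1 lower against HF-LF mice in batch 2 and over both. Leaving out 1 library gave 0 to 1 lower in batch 1, 0 to 1 higher and 0 to 5 lower in batch 2, and 0 to 1 higher and 2 to 4 lower over both for HF against LF, and 0 to 1 higher and 0 to 4 lower in batch 2 and 0 to 4 lower over both for HF against HF-LF.

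Over all genes, HF against LF mice of batch 1 gave 279 higher and 199 lower by DESeq2 and 1160 and 1262 by voom, against 0 by edgeR. Batch 2 gave 841 and 1015 by DESeq2, 844 and 1147 by voom and 108 and 227 with offsets, against 436 and 633. Both batches gave 575 and 688 with offsets, against 1294 and 1311. For HF against HF-LF mice, batch 2 gave 1083 higher and 1369 lower by DESeq2 and 907 and 1215 with its size factors. No filter gave 1026 and 1089 there, voom 864 and 1388 and the offsets 389 and 771, against 806 and 1278 by edgeR. Over both batches the offsets gave 355 and 477 for this comparison, against 705 and 783.

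In batch 1 the deviations of same-numbered samples from their group means had r from -0.48 to 0.48 over 10 pairs (median 0.13). In batch 2 r ran from -0.14 to 0.48 over 10 pairs (median 0.078). Samples of different number had medians of -0.029 and -0.013. Samples of the same diet and number in different batches had r from -0.37 to 0.24 over 11 pairs (median -0.052). So few pairs cannot decide whether the numbers pair the samples, or whether the batches share mice. With the replicate number as a block, 1 gene was higher and 5 lower (HF against LF, batch 2), 1 and 3 over both, and 3 lower against HF-LF mice over both. All-gene calls under this block for HF against LF were 30 higher and 62 lower in batch 1 and 892 and 1188 in batch 2. Over both they were 1374 and 1480, and 796 and 938 for HF against HF-LF. In the block the sign turned for Smoc2 (0.023) and Sox9 (-0.037), HF against HF-LF in batch 1, and Smoc2 (-0.025), HF-LF against LF in batch 2.

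Other log2 fold changes that turned sign are given here, and the cause was not tested. With voom, HF against LF gave Lgr5 0.18, Ascl2 0.13 and Sfrp1 1.37 in batch 1, Lgr5 0.0012 in batch 2 and Lgr5 0.041 over both. HF-LF against LF gave Ascl2 -0.024 in batch 1, and Ascl2 0.010 and Rnf43 -0.0014 in batch 2. HF against HF-LF gave Lgr5 0.062, Ascl2 0.15 and Smoc2 0.092 in batch 1. With offsets, Ephb2 was at 0.070 in batch 2 and 0.17 over both for HF against LF, and 0.12, 0.15 and 0.13 in batch 1, batch 2 and over both for HF against HF-LF. Lrig1 was at 0.0035 (HF against LF, batch 1), Sox9 at -0.00089 (HF against HF-LF, batch 1) and, for HF-LF against LF, Znrf3 at 0.027 in batch 1, Lgr5 at -0.018 and Ascl2 at 0.025 in batch 2, and Lrig1 at 0.010, Ephb2 at 0.033 and Cd44 at -0.016 over both. With same-numbered samples as correlated, Ascl2 was at -0.012 (HF against LF) and -0.018 (HF against HF-LF) over both.

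Leaving out 1 library turned the sign of these values. HF against LF ran, in batch 1, for Lgr5 from -0.19 to 0.16, Ascl2 from -0.56 to 0.14, Ephb2 from -0.023 to 0.074 and Sfrp1 from -0.39 to 0.45, in batch 2 for Lgr5 from -0.16 to 0.0029 and Cd44 from -0.19 to 0.026, and over both for Lgr5 from -0.13 to 0.028, Ascl2 from -0.020 to 0.29 and Ccnd2 from -0.16 to 0.024. HF against HF-LF ran, in batch 1, for Lgr5 from -0.28 to 0.073, Ascl2 from -0.61 to 0.084, Smoc2 from -0.14 to 0.050, Sox9 from -0.036 to 0.10 and Cd44 from -0.014 to 0.20, and over both for Ascl2 from -0.032 to 0.28. HF-LF against LF ran, in batch 1, for Ascl2 from -0.14 to 0.18 and Znrf3 from -0.063 to 0.022, in batch 2 for Lgr5 from -0.057 to 0.11, Ascl2 from -0.073 to 0.025, Smoc2 from -0.030 to 0.12, Axin2 from -0.12 to 0.014, Rnf43 from -0.059 to 0.071 and Znrf3 from -0.11 to 0.018, and over both for Ascl2 from -0.091 to 0.071, Znrf3 from -0.057 to 0.0092, Ephb2 from -0.039 to 0.0052, Sox9 from -0.071 to 0.030 and Cd44 from -0.075 to 0.093.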
